A study of Mus musculus with 36 samples.

Results

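The replication-dependent histone genes are the clustered genes for histones H1, H2A, H2B, H3 and H4 that carry symbols of the form Hist1h, Hist2h, Hist3h or Hist4h. In the deposited gene counts 68 symbols have that form, and the 56 with 20 or more counts summed over the 36 libraries are described here, of 24421 genes per library. They comprise 5 H1, 13 H2A, 16 H2B, 10 H3 and 12 H4 genes. Among the H2B symbols, Hist3h2bb-ps is a pseudogene by its name. The study sorted macrophages from collagenase-digested whole aorta, macrophages from peritoneal lavage, and monocytes from blood and spleen. All mice were Apoe ko, a genotype that lacks apolipoprotein E and is prone to atherosclerosis, so every group here, baseline included, carries that deletion. Each population was taken at baseline on a chow diet, early after 1 month on a high cholesterol diet, and at the advanced stage after 6 months on it, with 4 libraries in each of the 9 groups. Whether the 4 libraries in a group stem from different mice is not in the labels, so the p-values below measure only the spread between these libraries, which may be technical. No age is given either.

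A cell that copies its DNA must supply new histones, and most come from these clustered, intron-poor genes, which are transcribed mainly in S phase. Their mRNAs typically end in a short stem-loop that is bound by the protein Slbp, in place of the poly(A) tail that other mRNAs carry. H2A, H2B, H3 and H4 form the core around which DNA is wrapped, and H1 binds the linker between cores. Some of these genes can also yield polyadenylated transcripts, described mostly in cells that have stopped dividing. Macrophages and circulating monocytes divide little as a rule, while the progenitors of monocytes and neutrophils in the bone marrow and spleen divide often.

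The libraries are labelled as polyA RNA, so the 3′ ends of these genes bear on how their reads can be read. A stem-loop was found after the stop codon in the GENCODE vM21 (GRCm38, the assembly called mm10) transcript models of 38 of the 56 genes. Of the other 18 genes, 15 have models that end within 50 bases of the stop codon, so the letters of the stem-loop could not be searched there. Hist1h2bc and Hist2h2be have 742 and 2192 annotated bases after the stop codon and held no match. Hist3h2bb-ps has no annotated coding sequence, and so no stop codon to search behind. The sequences below show 1 gene of each family that the results turn on, and a second H1 gene, on the transcribed strand in DNA letters, with the 16-base stem-loop in capitals.
Hist1h1c: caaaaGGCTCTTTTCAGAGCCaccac
Hist1h1d: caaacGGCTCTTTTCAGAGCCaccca
Hist1h2ad: acaaaGGCTCTTTTCAGAGCCatcca
Hist1h2be: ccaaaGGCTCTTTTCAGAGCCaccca
Hist1h3f: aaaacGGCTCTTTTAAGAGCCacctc
Hist1h4c: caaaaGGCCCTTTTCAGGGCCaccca
The windows of Hist1h1c (chr13:23739507-23739532), Hist1h1d (chr13:23555782-23555807), Hist1h2ad (chr13:23574890-23574915) and Hist1h3f (chr13:23544927-23544952) lie on the plus strand. Those of Hist1h2be (chr13:23585526-23585551) and Hist1h4c (chr13:23698084-23698109) lie on the minus strand. All 6 are in the 3′ UTR. The 38 genes used 8 spellings of the stem-loop, and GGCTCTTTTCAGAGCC was the spelling of 20 of them. The annotated transcript ended within 100 bases of the stem-loop in 18 of the 38 genes and ran on for more than 100 bases past it in 20.

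The promoters of 2 named genes are shown because members of their families moved together in monocytes. They run from 250 bases before to 50 bases after the start of transcription in RefSeq (GRCm38.p6), chr13:23738557-23738856 for Hist1h1c and chr13:23571150-23571449 for Hist1h2bg, both on the plus strand of chromosome 13. Capitals mark matches to AAACACA (the H1 box), CCAAT, ATTTGCAT (the octamer) and TATAAA, searched on both strands.
Hist1h1c: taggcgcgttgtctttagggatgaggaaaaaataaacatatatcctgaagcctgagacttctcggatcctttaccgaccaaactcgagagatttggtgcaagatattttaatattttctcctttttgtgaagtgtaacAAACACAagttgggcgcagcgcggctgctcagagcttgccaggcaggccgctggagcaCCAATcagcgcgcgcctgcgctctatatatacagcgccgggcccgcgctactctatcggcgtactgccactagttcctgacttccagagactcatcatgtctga
Hist1h2bg: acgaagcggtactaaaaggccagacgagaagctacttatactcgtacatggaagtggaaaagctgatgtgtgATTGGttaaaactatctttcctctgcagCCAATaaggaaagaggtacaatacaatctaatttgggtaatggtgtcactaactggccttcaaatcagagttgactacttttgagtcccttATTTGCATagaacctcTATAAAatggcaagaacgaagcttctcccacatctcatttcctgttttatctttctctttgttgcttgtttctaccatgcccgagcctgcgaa
The H1 box lies from base -112 to -106 in Hist1h1c, and the octamer from base -59 to -52 in Hist1h2bg. All 56 genes matched a RefSeq gene through older symbols, and 50 of them had a promoter in the table, 51 windows in all. The H1 box was present in 4 of 5 H1 windows, against 7.18% of the 32851 mouse promoter windows in the table. The octamer was present in 6 of 14 H2B and 6 of 13 H2A windows, against 1.74% of all windows. CCAAT was in all 5 H1, 13 H2A, 14 H2B and 8 H3 windows and in 3 of 11 H4 windows, against 37.4% of all windows. TATAAA was in 31 of the 51 windows, against 13.6% of all. No match to one motif overlapped a match to another in these windows, and a match is a stretch of letters, not evidence of binding.

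The genes lie in 4 clusters, with 46 in Hist1 on chromosome 13, 6 in Hist2 on chromosome 3, 3 in Hist3 on chromosome 11 and 1 in Hist4 on chromosome 6. Near-identical copies limit what a single gene's count means. In 25 of the 56 genes at least 50% of the 50-base windows of the annotated transcripts also occur in a transcript of another gene, and in only 3 genes does none. Hist2h2bb and Hist2h3b share all of theirs. Of the 12 genes left out for low counts, 9 share at least 50% of their windows, so part of the reads of such copies may not have been counted to either. Hist1h1e also overlaps the annotated span of Hist1h2be on the same strand, so reads in the shared stretch may belong to either. The sources used here do not say whether counting used strand.

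Library totals ran from 0.943 to 14.8 M counts (1 M is 1000000). The diet-stage libraries had at most 2.63 M and the baseline libraries at least 5.28 M, so a diet effect and an effect of depth cannot be told apart by design. The marker sums of the 3 populations were each highest in the libraries of their own population, but not absent from the others. The 6 aortic macrophage markers summed to 7856 to 13463 counts per 1000000 (CPM) in aortic libraries, the 5 markers of large peritoneal macrophages to 5336 to 20952 CPM in peritoneal libraries, and the 6 monocyte markers to 3064 to 4921 CPM in monocyte libraries. The aortic markers also summed to 2106 to 4288 CPM in peritoneal libraries, and the monocyte markers to as much as 1004 CPM in aortic and 1486 CPM in peritoneal libraries. The monocyte libraries also held 8 neutrophil markers at 241 to 40100 CPM, against at most 7.77 CPM in the peritoneal libraries. In every early and advanced monocyte library the neutrophil sum was above the monocyte sum, with 40100 against 3279 CPM in advanced library 3. Reads of Apoe itself were present at 2.65 to 112 CPM over the 36 libraries, and where in the gene they lie was not analysed here. An earlier look at these data had set 6 libraries apart from their groups. In the aorta they were libraries 3 and 4 of the baseline and library 1 of the advanced stage. The others were library 3 of the advanced monocytes and libraries 1 and 2 of the early peritoneal macrophages. Results that rest on them are given with and without them.

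Summed over the 56 genes, histone reads were most abundant in monocytes of the 2 diet stages. In monocytes the sum was 1874, 1294, 1861 and 1743 CPM at baseline, 5705, 4891, 4604 and 4999 CPM at the early stage, and 3764, 5522, 10578 and 3714 CPM at the advanced stage. Every early and advanced monocyte library was thus above every baseline one, and advanced library 3 stood far above the rest. In peritoneal macrophages it was 1156, 713, 1003 and 1260 CPM at baseline, 1285, 2211, 1422 and 1775 CPM early, and 433, 751, 880 and 831 CPM at the advanced stage. The early peritoneal libraries lay above all the baseline and advanced ones, while baseline and advanced overlapped. In aortic macrophages it was 1281, 1250, 1212 and 630 CPM at baseline, 1030, 1604, 666 and 691 CPM early, and 1273, 940, 2512 and 1130 CPM at the advanced stage, and the 3 stages overlapped. Since these are bulk samples, more cells that express a gene and more of its RNA per cell cannot be told apart.

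**Figure D1:**
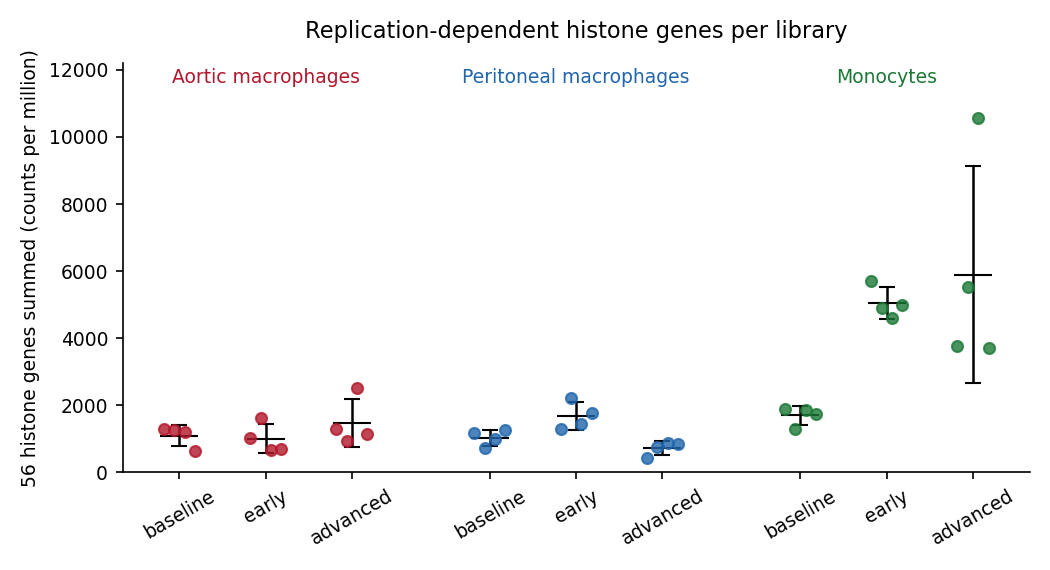
Summed CPM of the 56 histone genes (y axis) in each of the 36 libraries (points), by population and stage, with the mean and SD of the 4 libraries of each group (bars). Monocyte libraries of the early and advanced stages sit between 3714 and 10578 CPM, above all other libraries.

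In monocytes of the early stage histone genes of all 5 families were higher than at baseline. Of the 52 members that passed the filter on low counts, 44 were higher and 0 lower at an adjusted p under 0.05 in edgeR's quasi-likelihood test, which was fitted and adjusted over all 9465 genes tested in monocytes. Among all genes tested, 5.74% were called higher and 5.07% lower. The median log2 fold change was 1.70 over the members and 0.00 over all genes. The fold change was above 0 in all 52 members, and in 49 the early and baseline libraries did not overlap, against 7.27% of all genes. The filter needs a minimum level in only as many libraries as a group holds. A member that is low at baseline can thus pass through the diet stages alone, which favours a rise, and these counts include such members. Those lowest at baseline were Hist1h3g (2.45 CPM at baseline and 12.3 CPM early on average), Hist1h2ah (2.55 and 7.04), Hist1h2bk (3.45 and 14.7) and Hist1h4j (3.54 and 11.2). The called members were 4 of 5 H1, 9 of 12 H2A, 12 of 13 H2B, 8 of 10 H3 and 11 of 12 H4 genes.

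The 3 members with the most counts were linker histone genes. Hist1h1c, which encodes H1.2, had 303, 260, 275 and 397 CPM in baseline monocytes, 853, 790, 825 and 794 CPM in early ones, and 445, 752, 1052 and 697 CPM in advanced ones. The groups of both diet stages lay above baseline without overlap. Its log2 fold change was 1.42 ± 0.21 (SE, adjusted p = 0.000915, n = 4 each) for early against baseline, in edgeR's test. Hist1h1e, which encodes H1.4, had 223, 193, 291 and 261 CPM at baseline, 700, 699, 682 and 812 CPM early, and 357, 722, 1052 and 654 CPM at the advanced stage. Its log2 fold change was 1.60 ± 0.24 early and 1.57 ± 0.24 advanced, each against the same baseline libraries (adjusted p = 0.000874 and 0.000668 in edgeR's test). Hist1h1d, which encodes H1.3, had 80.2, 43.7, 84.3 and 99.1 CPM at baseline, 370, 344, 356 and 390 CPM early, and 221, 388, 660 and 237 CPM at the advanced stage. The log2 fold change was 2.26 ± 0.31 early and 2.33 ± 0.31 advanced (adjusted p = 0.000687 and 0.000304 in edgeR's test). The H1.5 gene Hist1h1b was called in both as well, with log2 fold changes of 2.19 and 2.46. Hist1h1a, the H1.1 gene, was not called early, with 0.88 ± 0.41 (adjusted p = 0.191 in edgeR's test), and was called at the advanced stage with 1.45 ± 0.42 (adjusted p = 0.025).

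Among the core histone genes, the smallest p-values for early against baseline belonged to Hist1h4c, Hist1h2bc, Hist1h2bg, Hist1h3a and Hist1h2ad. Hist1h4c, an H4 gene, had 64, 57.2, 56 and 47.4 CPM in early monocytes, against 16.9, 12.1, 18 and 22 CPM in baseline monocytes. Its log2 fold change was 1.71 ± 0.21 (adjusted p = 0.000366 in edgeR's test), and the libraries did not overlap. Hist1h2ad, an H2A gene, had 64, 52.4, 39.7 and 44.3 CPM in early monocytes and 18, 9.66, 15.1 and 9.23 CPM in baseline monocytes, a log2 fold change of 1.97 ± 0.28. The H2B genes Hist1h2bc and Hist1h2bg had log2 fold changes of 1.62 and 1.60 and the H3 gene Hist1h3a had 1.60, and none of these 3 overlapped between the groups either.

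At the advanced stage 48 of the 52 members were higher than at baseline and 0 lower, where 9.24% of all genes were called higher and 9.75% lower. The median log2 fold change was 2.13, against -0.01 over all genes, and in 42 members the advanced and baseline libraries did not overlap, where 8.47% of all genes lay above baseline in that way. The tested members are those of the early comparison, so the limit of the filter on low counts holds here too. The called members were 5 of 5 H1, 11 of 12 H2A, 12 of 13 H2B, 10 of 10 H3 and 10 of 12 H4 genes. Without monocyte advanced library 3, 45 members were called higher. With all monocyte libraries thinned to the depth of the shallowest, 47 members were called at the advanced stage and 34 early, of which 47 and 33 were among those called at full depth. The advanced comparison uses the same 4 baseline libraries as the early one, so the 2 are not independent.

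Hist1h2be, an H2B gene, had the smallest p-value of the members at the advanced stage. It had 102, 162, 297 and 101 CPM in advanced monocytes and 31.6, 25.8, 34.7 and 31.2 CPM in baseline monocytes. Part of its annotated span overlaps Hist1h1e, as above. Its log2 fold change was 2.48 ± 0.27 (adjusted p = 0.000169 in edgeR's test), and the highest value was that of library 3. Hist1h3f, an H3 gene among the 10 most abundant members, had 120, 158, 440 and 78.4 CPM in advanced monocytes, against 50.9, 25.6, 45.3 and 31.6 CPM in baseline monocytes. That is a log2 fold change of 2.45 ± 0.41 (adjusted p = 0.00107 in edgeR's test). Hist2h2bb, Hist1h2bb and Hist1h4d, core histone genes also among those 10, had log2 fold changes of 2.53, 2.47 and 1.34 for advanced against baseline, and all 3 were called. Hist1h2bc and Hist1h2bg, the remaining core histone genes among those 10, had 1.83 and 1.71 and were called as well. By family, the median log2 fold change was 2.48 for H2B, 2.29 for H3, 1.91 for H2A, 1.87 for H4 and 1.57 for H1.

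**Figure D2:**
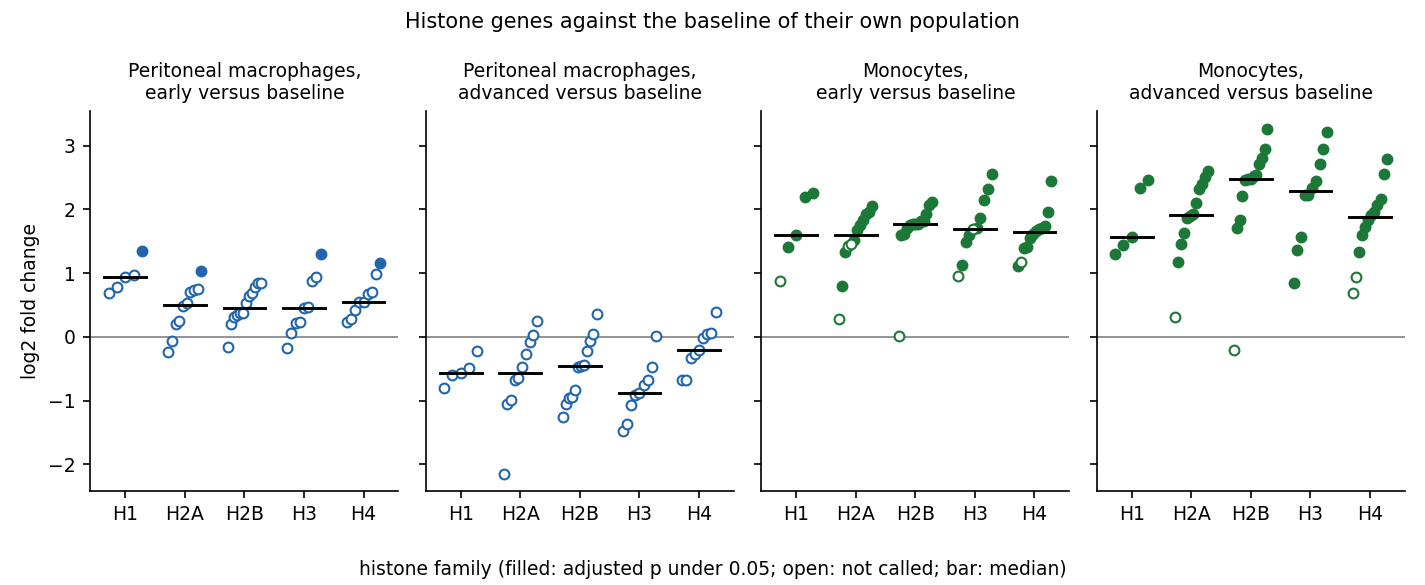
Log2 fold change against baseline (y axis) of each tested histone gene (points), by family (x axis), in peritoneal macrophages and monocytes at the early and advanced stages. Filled points passed an adjusted p of 0.05, open points did not, and bars are family medians; 44 early and 48 advanced points are filled in monocytes, 4 and 0 in peritoneal macrophages.

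A few members departed from the rest in monocytes, and these are named because they fell outside the call. At the advanced stage the 4 tested members not called were Hist2h2be, Hist3h2a, Hist4h4 and Hist1h4i. Hist2h2be, an H2B gene best known from olfactory neurons, had 8.64, 10.2, 10.2 and 4.57 CPM at baseline, 8.06, 10.9, 5.67 and 8.41 CPM early, and 7.28, 6.36, 10.7 and 2.91 CPM at the advanced stage. The 3 groups overlapped, and its log2 fold change was 0.02 ± 0.34 early and -0.21 ± 0.37 advanced. Hist3h2a, an H2A gene of the Hist3 cluster, had 48.2, 50.2, 42.9 and 41.9 CPM at baseline, 42.8, 61.9, 64.9 and 50.02 CPM early, and 48.3, 59.4, 61.7 and 51.6 CPM at the advanced stage. At 0.32 ± 0.14, the log2 fold change at the advanced stage did not pass the test. Hist4h4 was called early (1.42 ± 0.37) and not at the advanced stage (0.94 ± 0.39), and Hist1h4i was called in neither. Of the Hist1 cluster, 44 of 45 tested members were called higher at the advanced stage. In the Hist2 cluster the count was 4 of 5, and the single tested members of Hist3 and Hist4 were not called.

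The annotated 3′ end and the shared windows were set beside these changes as a description, without a test. The 17 tested members whose transcript ends within 100 bases of the stem-loop had a median log2 fold change of 1.77 early and 2.51 advanced, and all 17 were called at the advanced stage. For the 19 tested members annotated further past the stem-loop the medians were 1.60 and 1.60, and 16 were called at the advanced stage. The 16 without a stem-loop match had medians of 1.71 and 2.23. Members with at least 50% of their windows shared had medians of 1.73 and 2.33, and the rest had 1.61 and 1.78. Both 50% and 100 bases were chosen as round limits.

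Advanced and early monocytes did not differ in any member by edgeR's test, with 0 of 52 called where 2.05% of all genes were called. DESeq2's Wald test called 0 as well, and 3 members had an unadjusted p under 0.05. These were Hist1h2be (log2 fold change 0.71 ± 0.27), Hist1h4b (0.87 ± 0.37) and Hist1h2bm (1.19 ± 0.56), with adjusted p-values of 0.177, 0.225 and 0.269 in edgeR's test. The median over the members was 0.39. Without monocyte advanced library 3, 1 member was called lower at the advanced stage.

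**Figure D3:**
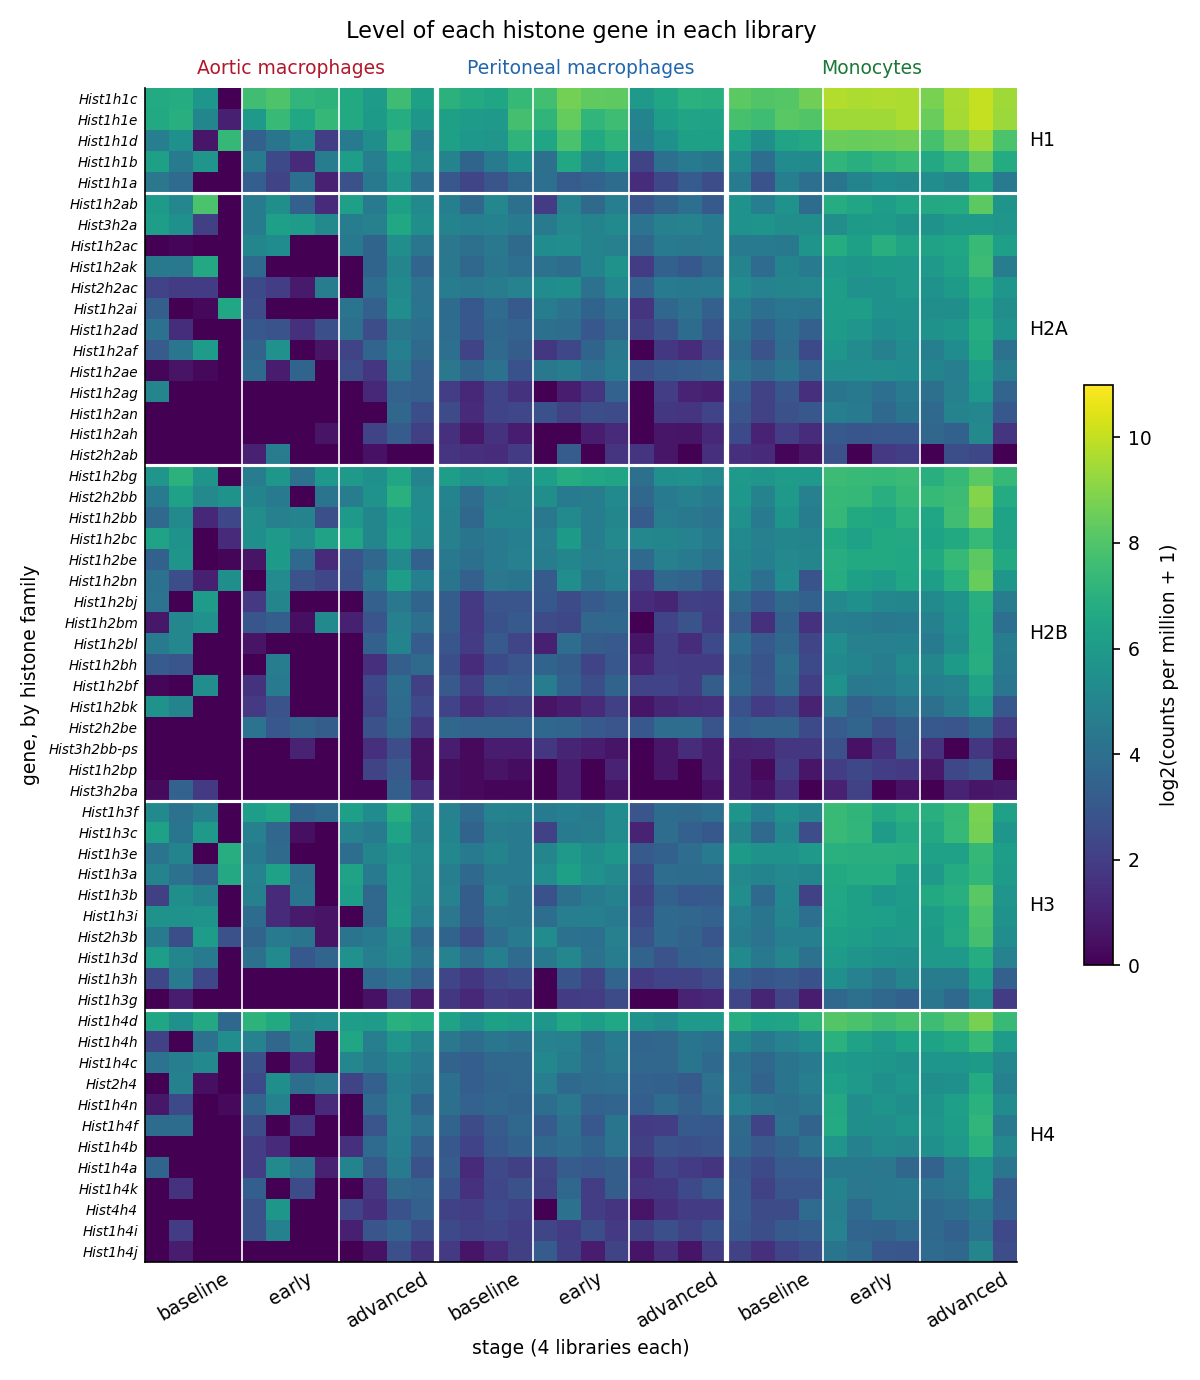
Level of each of the 56 histone genes (rows, by family and then by mean) in each of the 36 libraries (columns), as log2 of CPM plus 1. Monocyte columns of the early and advanced stages are brighter than baseline in nearly all rows, advanced library 3 most of all, and many aortic cells are at 0.

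Other genes of the cell cycle and of histone supply were read in the same monocyte fit. In a list of 31 genes of S phase and DNA replication, 27 were tested. Of these 7 were higher and 0 lower at the early stage, and 16 were higher and 0 lower at the advanced stage. Mcm6, a subunit of the replicative helicase, had a log2 fold change of 1.45 ± 0.29 early (57.0 CPM in early and 21.2 CPM in baseline monocytes on average), and Tyms, which makes thymidylate, had 3.44 ± 0.58 at the advanced stage. The list's median was 0.84 early and 0.93 advanced. These counts, and those of the lists that follow, stand beside 5.74% of all genes higher and 5.07% lower early, and 9.24% higher and 9.75% lower at the advanced stage. Of 20 mitosis genes 4 were higher early and 11 advanced, 0 were lower, and the median was 1.36 and 2.04. Top2a, a topoisomerase of dividing cells, had log2 fold changes of 1.71 ± 0.51 and 2.63 ± 0.52. Of 17 genes that transcribe or process histone mRNA, 16 were tested, and 3 were higher and 2 lower at the advanced stage, the count of lower ones near the share over all genes. Slbp was among those that rose, by 0.52 ± 0.16 on the log2 scale, together with the histone mRNA exonuclease Eri1 (0.51 ± 0.10) and the 3′ end factor Cstf2 (0.47 ± 0.15), while Upf1 (-0.51 ± 0.10) and Pou2f1 (-0.48 ± 0.12) were lower. At the early stage 1 gene of that list was higher and 1 lower.

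Histone genes that are not tied to replication rose in part. Of 9 tested, 3 were higher early and 5 at the advanced stage, with list medians of 0.66 and 0.64. H3f3b and H3f3a, which encode the replacement histone H3.3, had log2 fold changes of 0.89 ± 0.18 and 0.62 ± 0.09 at the advanced stage. Of 14 histone chaperones, 0 were higher early and 2 at the advanced stage, Anp32e (0.82 ± 0.14) and Nasp (0.97 ± 0.20), and 0 were lower at either stage. A count of 2 in 14 is near the 9.24% of all genes called higher.

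Markers of other cells moved with the histone genes in the monocyte libraries. The 5 markers of granulocyte-monocyte progenitors, all called higher at both stages, summed to 9.91 to 29.1 CPM at baseline, 168 to 289 CPM early and 129 to 805 CPM at the advanced stage. The 8 neutrophil markers summed to 241 to 723 CPM at baseline, 3785 to 14210 CPM early and 5048 to 40100 CPM at the advanced stage, and 6 were called higher early and 7 advanced. Monocyte advanced library 3 was the highest of the 12 in histone, S phase, mitosis, progenitor and neutrophil sums alike, with 1158 CPM of S phase genes and 2339 CPM of mitosis genes. Erythroid markers went the other way, with sums of 23.1 to 133 CPM at baseline, 3.15 to 13.6 CPM early and 9.49 to 18 CPM at the advanced stage. Of the tested B cell markers 3 of 3, and of the T and NK cell markers 5 of 7, were also higher early, and 0 B cell markers and 0 T and NK cell markers were higher at the advanced stage. Of the defining markers, Mpo averaged 113 CPM early and 9.42 CPM at baseline, and S100a8 averaged 2804 CPM early and 78.8 CPM at baseline. The part of these cells in the histone result was not tested.

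RNAs without a poly(A) tail were looked at after their values had been seen, since most replication-dependent histone mRNAs lack one too. Rmrp and Rpph1, the RNAs of the RNase MRP and RNase P enzymes, were higher in early than in baseline monocytes, by 2.53 ± 0.35 and 2.91 ± 0.22 on the log2 scale (adjusted p = 0.000687 and 7.96e-06 in edgeR's test). At the advanced stage they were above baseline by 1.24 ± 0.34 and 1.12 ± 0.21. Rpph1 fell by 1.79 on the log2 scale in advanced against early monocytes, a comparison in which no histone gene was called (adjusted p = 0.00369 for Rpph1 in edgeR's test). The ribosomal precursor Rn45s took 6.5 to 13.9% of the counts of the monocyte libraries and was called in none of the 3 monocyte comparisons. The part of RNA selection or library preparation in the histone result was not tested.

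**Figure D4:**
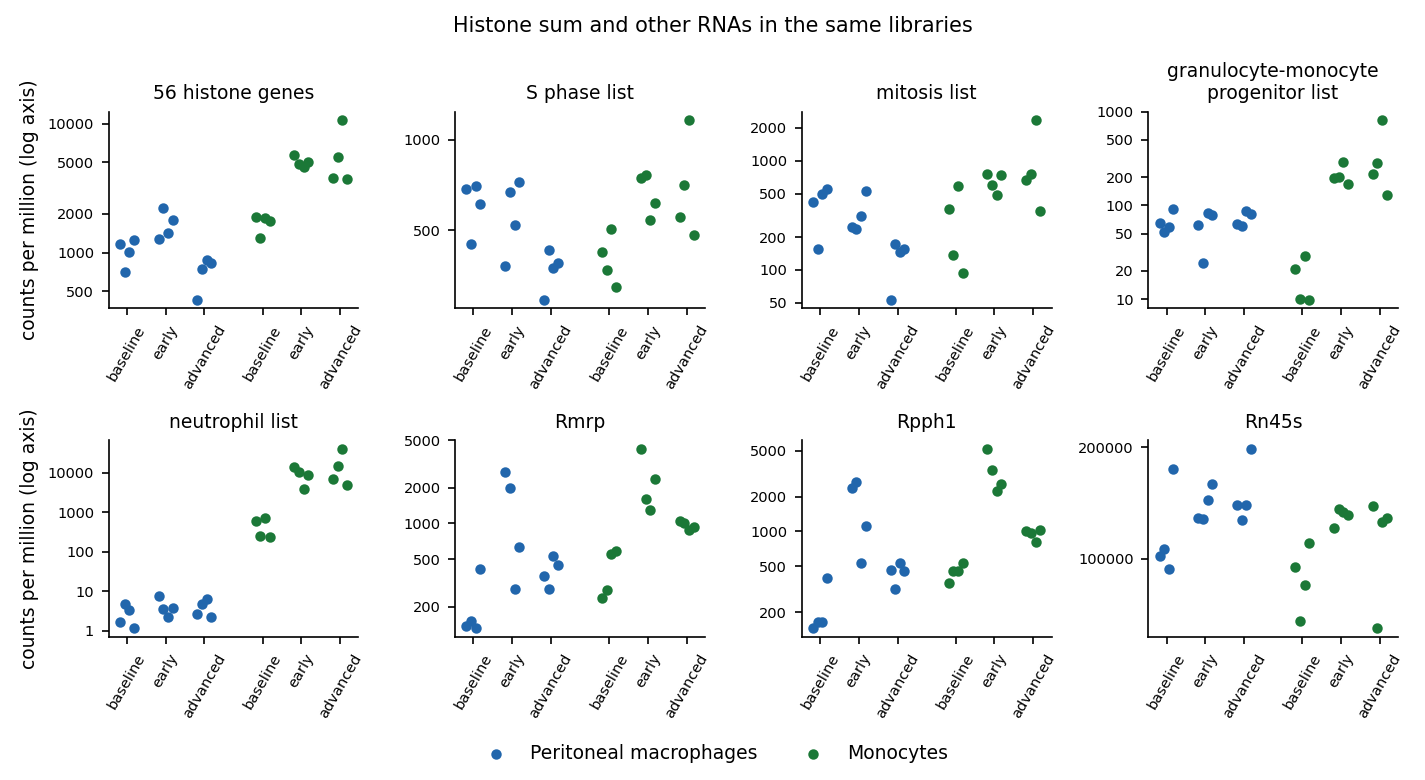
CPM on a log axis in each peritoneal and monocyte library (points), by stage, for the 56 histone genes, the S phase, mitosis, progenitor and neutrophil lists (sums) and for Rmrp, Rpph1 and Rn45s. In monocytes the histone, progenitor and neutrophil sums are above baseline in all 8 diet libraries; in peritoneal macrophages the neutrophil sum stays at or below 7.77 CPM.

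In peritoneal macrophages a small number of histone genes were called at each diet stage. Of 45 members tested, 4 were higher and 0 lower in early than in baseline libraries, where 1.37% of all 9575 genes tested were called higher and 0.418% lower. They were Hist1h1c, Hist1h2ac, Hist1h4c and Hist1h3a, and the median over the 45 was 0.54 on the log2 scale, against 0.02 over all genes. Hist1h1c had 135, 105, 88.9 and 164 CPM at baseline, 201, 414, 318 and 308 CPM early, and 61.2, 91.2, 129 and 123 CPM at the advanced stage. Its early libraries were above all others, and the log2 fold change was 1.35 ± 0.27 for early against baseline (adjusted p = 0.0296 in edgeR's test). Hist1h3a had 24.8, 12.6, 21.7 and 22.7 CPM at baseline, 41.3, 75.1, 46.5 and 35.5 CPM early, and 4.37, 14.4, 13.6 and 13.6 CPM at the advanced stage. Its log2 fold change was 1.30 ± 0.29 for early against baseline (adjusted p = 0.0401 in edgeR's test). Hist1h2ac (1.03 ± 0.21) and Hist1h4c (1.15 ± 0.24) were the other 2. The early calls rest on single libraries: 0 members were called without any one of peritoneal baseline libraries 1, 2 or 3 or early library 2, and 1, Hist1h1c, was called without early libraries 1 and 2 (log2 fold change 1.43 ± 0.27, adjusted p = 0.0237 in edgeR's test). Without those 2 libraries Hist1h3a had 1.08 ± 0.31, Hist1h4c 0.82 ± 0.26 and Hist1h2ac 0.80 ± 0.24, and none of these 3 passed.

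Monocyte markers moved with the early peritoneal stage. Their sum was 127 to 146 CPM in the 4 baseline libraries, 1099, 1486, 144 and 108 CPM in the 4 early libraries, and 131 to 164 CPM in the 4 advanced ones. Early libraries 1 and 2 were thus far above the rest, and they also had the least of the large peritoneal macrophage markers, with 9522 and 5336 CPM against 14098 CPM or more in the other early libraries and 16711 CPM or more at baseline. Of the 4 monocyte markers tested, Ccr2, a chemokine receptor of monocytes, was higher early (570 CPM in early and 11 CPM in baseline libraries on average; log2 fold change 5.66 ± 0.94, adjusted p = 0.0132 in edgeR's test) and 0 were lower. Without early libraries 1 and 2 its log2 fold change was 1.78 ± 0.29, and it was still called. Of the 5 large peritoneal macrophage markers 0 were called in either direction.

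In advanced against early peritoneal macrophages 4 members were lower and 0 higher, where 0.804% of all genes were called lower and 0.522% higher. Hist1h3a fell by 2.05 on the log2 scale (SE 0.33, adjusted p = 0.0151 in edgeR's test), Hist1h3e by 1.76 (SE 0.31), Hist1h1c by 1.57 (SE 0.28) and Hist1h2bg by 1.31 (SE 0.27). Hist1h3e, an H3 gene, had 7.65, 9.60, 14.2 and 22.2 CPM in advanced libraries and 32.5, 61.4, 43.4 and 55.1 CPM in early ones, with no overlap. The fold change was below 0 in 44 of the 45 members, with a median of -1.25 against -0.02 over all genes, and 18 members were lower without overlap, where 4.29% of all genes were. DESeq2's Wald test called 16 members lower. With edgeR 0 were called without advanced library 2 or 3, 1 without early library 2 and 2 without advanced library 1 or 4. Ccr2 was lower as well, with 4.9 CPM in advanced and 570 CPM in early libraries on average (log2 fold change -6.78 ± 1.13, adjusted p = 0.0151 in edgeR's test), while another monocyte marker, Hp, was higher (1.33 ± 0.30). Without early libraries 1 and 2, in which the monocyte markers were high, 5 members were called lower. They were the same 4 and Hist1h2ak, with -1.84 ± 0.36 for Hist1h3a and -1.65 ± 0.28 for Hist1h1c.

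Advanced and baseline peritoneal macrophages differed in 0 of 45 members by edgeR's test, where 0.898% of all genes were called, in 2 by DESeq2's Wald test, and 10 had an unadjusted p under 0.05. The smallest p-values were those of the H3 genes Hist1h3d, Hist1h3b and Hist1h3e, with log2 fold changes of -1.07 ± 0.30, -1.48 ± 0.48 and -0.88 ± 0.30 (adjusted p = 0.101, 0.147 and 0.171 in edgeR's test). Without peritoneal early libraries 1 and 2 the same comparison called 3 members lower.

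The other gene groups were read in the same peritoneal fit. Of 27 S phase genes 0 were called in any of the 3 stage comparisons, and their median log2 fold change was -0.02 early and -0.72 advanced, each against baseline. In advanced against early libraries the fold change was below 0 in all of them but Rfc3. The smallest p-values there were those of Rrm2 (-1.59 ± 0.50) and Uhrf1 (-1.60 ± 0.51). Of 16 mitosis genes 1, Mki67, was called, lower at the advanced stage than at baseline, with 37.5 ± 14.5 CPM in advanced and 152 ± 63 CPM in baseline libraries (SD, n = 4 each). All 16 had fold changes below 0 in advanced libraries, against early and against baseline ones alike. Against early libraries Mki67 had a log2 fold change of -1.56 ± 0.40 and was not called. Of the replication-independent histone genes, 3 of 9 were higher early, where 1.37% of all genes were. One of them, H3f3b, was lower in advanced against early libraries (-0.96 ± 0.21, adjusted p = 0.0437 in edgeR's test). Of 13 histone chaperones 1, Ssrp1, was called, lower at the advanced stage than at baseline (-0.50 ± 0.10). The neutrophil markers summed to at most 7.77 CPM, and the erythroid markers to at most 0.324 CPM and to 0 in all 8 diet libraries. Rmrp and Rpph1 were higher early by 2.68 ± 0.58 and 2.92 ± 0.45 on the log2 scale (adjusted p = 0.0371 and 0.0099 in edgeR's test), and early libraries 1 and 2 had the most of both. Without those 2 libraries Rpph1 was still called (2.00 ± 0.39, adjusted p = 0.027) and Rmrp was not (1.19 ± 0.46, adjusted p = 0.318).

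Whether the 2 populations responded differently was tested as a difference of their changes, in 1 fit of the 24 monocyte and peritoneal libraries. For the early stage 3 of 52 members had a lower change in peritoneal macrophages than in monocytes, Hist1h2ad, Hist1h2be and Hist1h2bk. Of all 10343 genes tested, 0.512% were called in that direction and 2.27% in the other. The difference was below 0 in all 52, with a median of -1.14. Only 45 members had passed the filter on low counts in the fit of peritoneal libraries alone. Hist1h2bk and Hist1h3g were not among those, so their peritoneal values are low counts. Hist1h2bk was called for both stages and Hist1h3g for the advanced stage. These early calls rest on single libraries, since 0 were called without any one of monocyte baseline libraries 2 or 4, monocyte early libraries 1, 2 or 4, peritoneal baseline libraries 1, 3 or 4, or peritoneal early library 2, and 0 without the libraries that stood apart. For the advanced stage 36 of 52 were called lower and 0 higher, where 1.69% of all genes were called lower and 0.609% higher, and the median was -2.57. Hist1h2be had a difference of -2.53 ± 0.39 (adjusted p = 0.00157 in edgeR's test), Hist1h2bg of -2.16 ± 0.35 and Hist1h2ad of -2.86 ± 0.47. The called members were 4 of 5 H1, 6 of 12 H2A, 11 of 13 H2B, 9 of 10 H3 and 6 of 12 H4 genes. With counts thinned to the shallowest library 21 were called, all among the 36. Without monocyte advanced library 3 the count was 17, and without peritoneal advanced library 1 it was 23. In the same fit 9 of 28 S phase genes and 9 of 20 mitosis genes were called lower for the advanced stage.

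**Figure D5:**
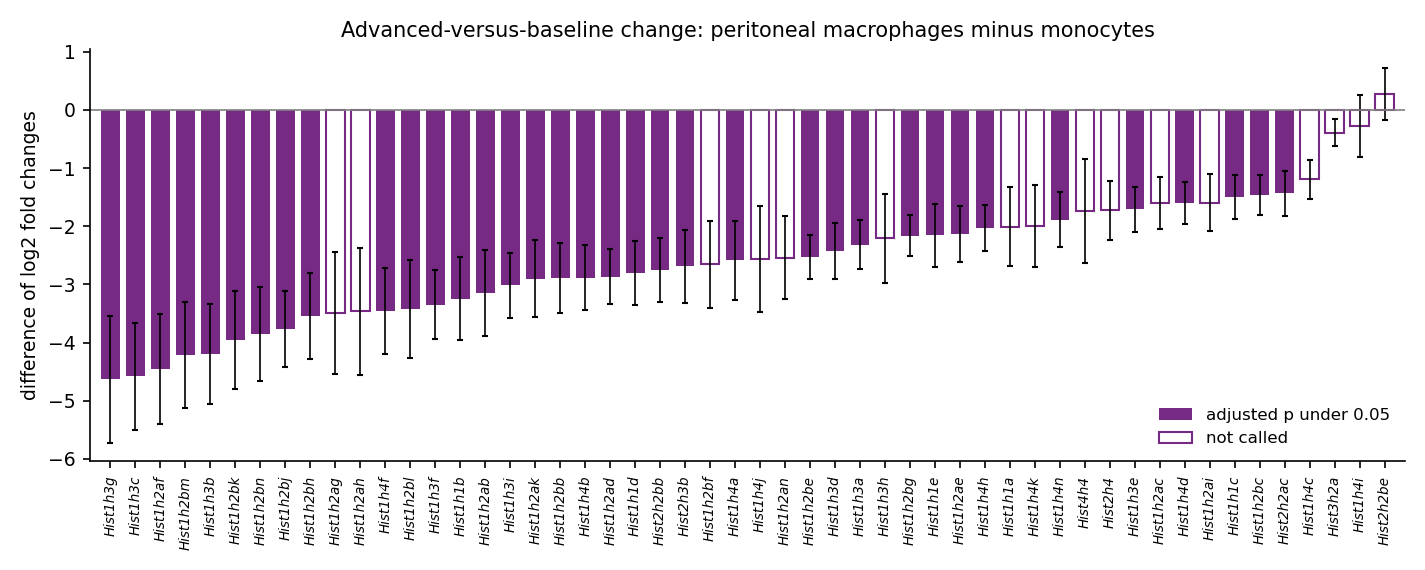
Difference of the log2 fold changes of advanced against baseline, peritoneal macrophages minus monocytes (y axis), for each of the 52 tested histone genes, with its SE (whiskers). Filled bars passed an adjusted p of 0.05 (36 genes), open bars did not, and only Hist2h2be lies above 0.

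In aortic macrophages no histone gene changed between stages by edgeR's test, and the libraries of a stage differed widely. The biological coefficient of variation in edgeR, the spread between libraries beyond counting error, reached 110% for aortic macrophages, against 21.2% for peritoneal macrophages and 19.1% for monocytes. Of the 56 members, 8 had counts in all 4 aortic baseline libraries, 22 in all 4 early ones and 34 in all 4 advanced ones, although the baseline libraries were the deepest. Hist1h1c had 103, 111, 54.4 and 0 CPM at baseline, 197, 248.5, 148 and 137 CPM early, and 101, 65.8, 191 and 74.1 CPM at the advanced stage. The early libraries lay above the baseline ones, and the other groups overlapped. In early against baseline 0 of 46 members were called, where 0.373% of all 9920 genes tested were. DESeq2's Wald test called 3, and 6 had an unadjusted p under 0.05. In advanced against early 0 were called, where 0.0403% of all genes were, 0 by DESeq2, with 3 at an unadjusted p under 0.05. In advanced against baseline 0 were called, where 0.585% of all genes were, 3 by DESeq2, with 4 at an unadjusted p under 0.05.

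The smallest p-values of aortic early against baseline belonged to Hist2h2be, Hist1h2ac and Hist4h4. Hist2h2be had 17.3, 6.86, 10.3 and 8.52 CPM in early libraries and 0 in all 4 baseline libraries, where 3 counts, the limit that a count of 0 allows, would be at most 0.568 CPM. The groups did not overlap, yet the adjusted p was 0.114 in edgeR's test. Hist1h2ac had 32.5, 39.6, 0 and 0 CPM in early libraries and 0, 0.12, 0 and 0 CPM in baseline libraries (adjusted p = 0.114). Hist4h4 had 5.59, 56.4, 0 and 0 CPM in early libraries and was at 0 in the baseline ones (adjusted p = 0.142). In both Hist1h2ac and Hist4h4, 2 of the 4 early libraries carried all of the early reads. The same 3 genes led advanced against baseline, with adjusted p-values from 0.104 to 0.182, and Hist1h3h, Hist1h2bl and Hist1h4c led advanced against early, with adjusted p-values of 0.967 or more. Markers of other cells moved with the aortic stages. Fibroblast markers summed to 8.89 to 287 CPM at baseline, 510 to 1058 CPM early and 140 to 379 CPM at the advanced stage, and neutrophil markers to 0 to 16.4 CPM, 77.6 to 204 CPM and 0 to 3.75 CPM at those 3 stages. Both sums were higher in every early library than in any other aortic library. The part of such cells in the aortic values was not tested.

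Averaged over the 3 stages, aortic macrophages had fewer histone reads than monocytes. In the fit of all 36 libraries 41 of 53 members were lower and 0 higher, where 18.2% of all 11052 genes tested were called lower and 18.4% higher. In 2 members, Hist1h1e and Hist1h1c, all 12 aortic libraries lay below all 12 monocyte libraries, as they did in 3.37% of all genes. Hist1h1e averaged 89.0 CPM in aortic macrophages and 554 CPM in monocytes, a log2 fold change of -2.47 ± 0.35 (adjusted p = 4.13e-07 in edgeR's test). Hist1h1c averaged 119 CPM in aortic macrophages and 620 CPM in monocytes, with -2.31 ± 0.35. Of the 53 members 10 had no count in at least 1 aortic group, among them Hist1h4b and Hist1h2an, and their fitted fold changes are not given. Over the other 43 the median was -1.59, all 43 were below 0 and 31 were called lower. The spread of the aorta is shared with the other populations in this fit.

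Between aortic and peritoneal macrophages fewer members were called. Of 53 members 1 was higher and 11 lower in the aorta, where 17.1% of all genes were called higher and 17% lower. Over the 43 members with counts in every group the median was -0.02, with 1 called higher and 4 lower. The member called higher was Hist1h2ab, an H2A gene, which averaged 51.6 CPM in aortic and 16.2 CPM in peritoneal macrophages (log2 fold change 1.34 ± 0.52, adjusted p = 0.0457 in edgeR's test). Its aortic values ran from 0 to 236 CPM, so the libraries overlapped. Hist1h2ac averaged 13.8 CPM in aortic and 23.4 CPM in peritoneal macrophages and was among those called lower. The 2 directions together came to 12 members. In a fit of the 24 aortic and peritoneal libraries alone 6 were called, all lower, and the count was 19 without aortic baseline library 2, and also without aortic baseline library 4.

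Peritoneal macrophages, averaged over stages, had 37 of 53 members lower than monocytes and 0 higher, where 14.8% of all genes were called lower and 15% higher, with a median of -1.63. Hist1h1e averaged 125 CPM in peritoneal macrophages and 554 CPM in monocytes (log2 fold change -1.91 ± 0.34, adjusted p = 2.44e-05 in edgeR's test). Hist2h2bb averaged 25.8 CPM in peritoneal macrophages and 145 CPM in monocytes (-1.97 ± 0.36), and Hist1h4d averaged 65.7 CPM in peritoneal macrophages and 196 CPM in monocytes (-1.27 ± 0.24). A population fold change is the mean of 3 stage differences, so the rise in monocytes at the diet stages enters it.

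Per kilobase of annotated exon, the level of Hist2h2bb was the highest of the members in advanced monocytes, with 631 CPM per kb, followed by Hist1h1c with 472 and Hist1h2bn with 394 CPM per kb. In early peritoneal macrophages Hist1h1c led with 199 CPM per kb and Hist1h2bg followed with 147 CPM per kb. The annotated lengths are those of GENCODE, which may differ from the models the authors counted on, and Hist2h2bb and Hist1h2bn share 100% and 86.4% of their windows with other genes. The 5 H1 genes held 22.9 to 48.8% of the histone counts of a peritoneal library and 29.97 to 46.4% of those of a monocyte library. In the aorta their share ran from 11.4 to 46.8%.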

How the data were processed

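The authors deposited gene counts for 36 libraries, 1 value per gene, whole numbers that are not normalized. Per the labels, libraries of polyA RNA from sorted cells were prepared using Ovation SoLo (Nugen) and sequenced from both ends, and per the submitters' processing notes the tools were STAR and featureCounts on mm10. Their versions and the strand setting are not given in the sources used here. The histone genes and all gene lists were chosen with earlier results of these data known.

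Counts were fitted per population with edgeR 4.0.16 (R 4.3.3; TMM, filterByExpr, quasi-likelihood test, two-sided, Benjamini-Hochberg adjustment over all genes tested, called at 0.05). A SE is the size of the log2 fold change over the root of F. Populations were compared in a fit of all 36 libraries and responses in a fit of 24. CPM are counts per 1000000 of a library's total, without further scaling. DESeq2 1.42.0, RLE factors, no filter on low counts, thinned counts, a replicate block, leaving out libraries, separate variances (limma 3.58.1) and totals without Rn45s were alternatives. The code was tested on simulated data. Stem-loops and shared windows came from GENCODE vM21, promoters from RefSeq (Python 3.11.15, pandas 2.3.3). Named genes are the 10 members with the highest mean CPM, up to 6 called members per direction and comparison by smallest p, the 3 smallest p-values where none was called, and up to 4 called genes of each other list; Rmrp, Rpph1, Rn45s and members named for falling outside a call were chosen after their values were seen. The 12 symbols under 20 counts were left out.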

Additional observations from a re-analysis of the deposited data

Results flagged for a closer look

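In 10 of 144 sets of 4 libraries, 1 library lay far from the other 3 by Dixon's test, and chance alone gives about 1 in 20. In aortic macrophages the summed histone level was 630 CPM in baseline library 4, against 1212 to 1281 CPM in the other 3, and the H2B sum was 617 CPM in advanced library 3, against 231 to 250 CPM. In monocytes Hist1h1b had 14.7 CPM in baseline library 2 (36.4 to 38.9 CPM in the others), Hist1h1e had 812 CPM in early library 4 (682 to 700 CPM) and Hist2h2bb had 122 CPM in early library 3 (160 to 165 CPM). In peritoneal macrophages Hist1h1e had 213 CPM in baseline library 4, against 60.1 to 76.1 CPM. Peritoneal baseline library 2 was low in Hist1h3f, with 13.4 CPM against 27.5 to 28.6 CPM, and in Hist1h2bb, with 11.7 CPM against 27.7 to 30.04 CPM. Peritoneal advanced library 1 was low in the H2A sum, with 60.6 CPM against 123 to 136 CPM, and in the H3 sum, with 46.4 CPM against 93.7 to 99.5 CPM.

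The change from baseline differed between peritoneal macrophages and monocytes, by edgeR's test of the difference, in 3 members at the early stage and 36 at the advanced stage. At the early stage the differences, peritoneal macrophages minus monocytes on the log2 scale, were -1.73 for Hist1h2ad, -1.38 for Hist1h2be and -3.05 for Hist1h2bk. Hist1h2bk had not passed the filter on low counts in the fit of peritoneal libraries alone. At the advanced stage the smallest p-values belonged to Hist1h2be (-2.53), Hist1h2bg (-2.16), Hist1h2ad (-2.86), Hist1h2bj (-3.76), Hist1h3f (-3.35) and Hist1h3a (-2.32).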

How the results depend on the processing

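No result reversed. Of 48 named calls, 36 were kept under every alternative. Apart from the replicate block and single libraries left out, which are given below, counts of called members moved by over 1.5 times as follows. Without the filter on low counts, aortic early against baseline and advanced against baseline each called 1, and peritoneal advanced against early called 8. DESeq2 called 3, 3 and 16 in those comparisons and 2 in peritoneal advanced against baseline. With counts thinned to the shallowest library, peritoneal early against baseline called 2, the early response difference 0 and the advanced one 21. Without the libraries that stood apart, monocyte advanced against early called 1, peritoneal early against baseline 1, peritoneal advanced against baseline 3 and the early response difference 0. Aortic against peritoneal macrophages called 6 in a fit of those 24 libraries. The summed level of early monocytes moved by less than 1.5 times, from 5050 CPM on the deposited totals to 5807 CPM on totals without Rn45s.

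Leaving out each library in turn gave 31 to 43 called members for monocyte early against baseline, 0 to 1 for advanced against early and 45 to 49 for advanced against baseline. It gave 0 to 5 for peritoneal early against baseline, 0 to 5 for advanced against early and 0 to 0 for advanced against baseline, and 0 to 0 in all 3 aortic stage comparisons. The range was 38 to 46 for aorta against monocytes, 11 to 19 for aorta against peritoneum, 31 to 38 for peritoneum against monocytes, 0 to 5 for the early response difference and 17 to 42 for the advanced one. The cause of these moves was not tested.

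Pairing by replicate number was looked at only within a population, between libraries of different stages. In monocytes the correlations of their deviations ran from -0.33 to 0.19 for same-numbered libraries and from -0.25 to 0.24 for the others. Whether same-numbered libraries of different populations at the same stage share mice is not in the labels and was not tested. With the replicate block the called members were 45 and 48 for monocyte early and advanced against baseline, 1 for peritoneal early against baseline, 3 for peritoneal advanced against early, 41, 12 and 37 for the 3 population comparisons, and 1 and 34 for the early and advanced response differences. It was 0 elsewhere. Depth limits the diet-stage libraries most, where 3 counts stand for 1.14 to 3.18 CPM.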
